A study of Mus musculus with 6 samples.

Results

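The genes described here are the RAB small GTPases, taken as every protein-coding gene of the deposited count table whose symbol is RAB followed by a number, with or without a paralog letter, and they came to 64 of 19951 protein-coding genes. Messenger RNA was measured by RNA-Seq in 22Rv1, a human castration-resistant prostate cancer cell line. Parental 22Rv1 cells given vehicle were compared with the BL-B01D1_R subline, which had been derived from the same line under gradually rising concentrations of BL-B01D1. BL-B01D1 is an antibody-drug conjugate (ADC) that binds EGFR and HER3 and carries a topoisomerase I inhibitor, the camptothecin derivative Ed-04. Each group had 3 libraries, and the resistant libraries came from a single selected subline, so its adaptation to the drug and any difference present in the cells that grew out cannot be told apart. Nothing in the labels says that the libraries of a group were separate cultures, and the p-values therefore measure the spread between these libraries, which may be technical.

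RAB proteins are molecular switches that mark membranes. Loaded with GTP by a guanine nucleotide exchange factor (GEF), a RAB sits on a vesicle or organelle through its lipid tail and recruits effectors such as tethers and motor adaptors. A GTPase-activating protein (GAP) turns it off, and a GDP dissociation inhibitor (GDI) lifts it from the membrane for another round. Internalised receptors and antibodies pass through compartments marked by RAB5 (early endosomes), RAB4 and RAB11 (recycling to the surface) and RAB7 (late endosomes and lysosomes), while the RAB3 and RAB27 proteins act in regulated secretion.

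Total counts ranged from 13821639 to 17251491 per library. Levels are given as counts scaled to a library of 1000000 (CPM) after TMM scaling, and levels of different genes are compared only per length, as FPKM. The luminal prostate markers were present, with 9 of 9 above the filter and a summed level of 3373 to 3473 CPM in parental and 3571 to 3657 CPM in resistant libraries. Keratin 5 of basal cells was at 0 in every library, and 7 of the 8 basal, leukocyte and endothelial markers never exceeded 3 counts. The fibroblast markers summed to 15.05 to 17.06 CPM in parental and 12.96 to 13.04 CPM in resistant libraries, most of it COL1A1. ABCG2, the drug efflux pump, was at 4.11 ± 0.735 CPM in parental and 437 ± 4.96 CPM in resistant libraries (mean ± SD, n = 3), while EGFR was at 53.3 ± 1.53 against 69.3 ± 2.15 CPM and ERBB3 at 161 ± 4.19 against 149 ± 2.35 CPM.

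As a family the RAB genes had nearly the same combined level in both groups, with members moving in both directions by small amounts. Their summed share of all counts was 0.315 to 0.317% in the parental and 0.314 to 0.319% in the resistant libraries. Of the 64 members, 56 passed the filter on low counts, and 23 of those differed between the groups at an adjusted p (FDR) under 0.05, 12 higher and 11 lower in resistant cells. Over all 17142 genes tested, 35.5% passed the same test, 17.1% higher and 18.4% lower, so the share of 41.1% among tested members lay near the background and nearer the 40.7% of tested protein-coding genes. At 8 CPM or more the counts were 20 of 47 members and 4739 of 10975 genes. The 3 libraries of each group did not overlap for 28 of the 56 tested members (14 above and 14 below), against 44.8% of all tested genes. In bulk RNA, a lower level in every cell and a smaller share of cells carrying the transcript cannot be told apart.

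The changes were modest. Tested members had a median log2 fold change of 0.00, as did all tested genes, and 38 of the 56 members lay within 0.25 of 0. A log2 difference of 0.5 or more in either direction was found for 8 members, which is 14.3% of those tested, against 16.9% of all tested genes. With a log2 fold change over 1 also required, 0 members were called higher (background 2.53%) and 2 were called lower (background 2.84%), RAB3C and RAB7B. Among the 23 members that passed, 16 did so with each of the 6 libraries left out in turn.

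**Figure D1:**
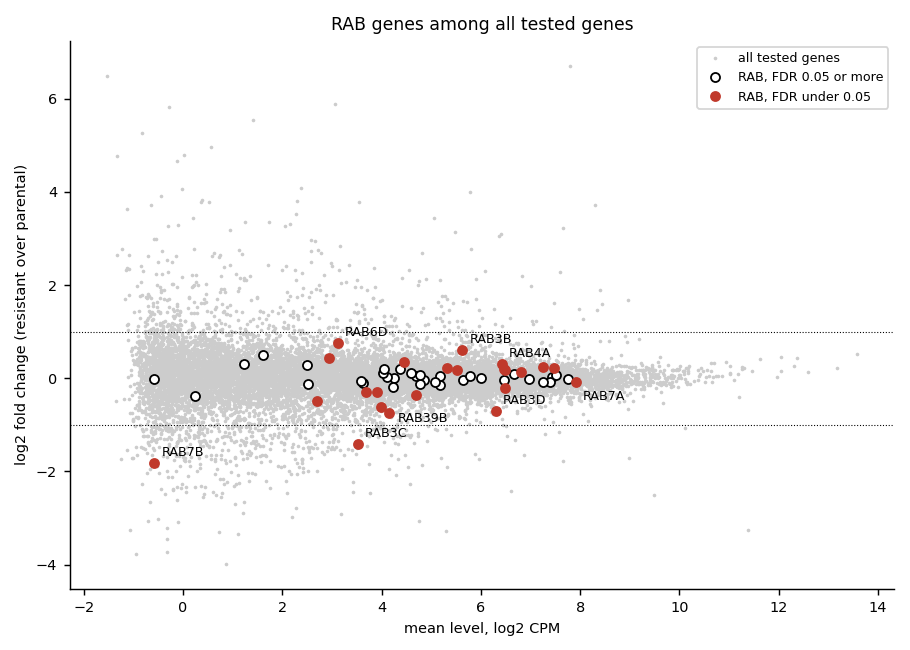
Log2 fold change of resistant over parental cells (vertical axis) against mean level in log2 CPM (horizontal axis) for the 17142 tested genes (grey) and the 56 tested RAB genes (filled where the adjusted p was under 0.05, open otherwise), with dotted lines at a log2 fold change of 1 in either direction. RAB genes lie in the middle of the cloud, with RAB3C and RAB7B below the lower dotted line.

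Members were next counted by textbook route. Of the 16 tested genes of the endoplasmic reticulum (ER) and Golgi, 3 rose and 1 fell, and of the 14 tested genes of early endosomes and recycling, 5 rose and 2 fell. Among 10 tested genes of late endosomes, lysosomes and autophagosomes 1 rose and 6 fell, with a median log2 fold change of -0.15. For the 13 tested genes of surface delivery and secretion, 2 rose and 2 fell. The RAB40 genes, which add a SOCS box and act in ubiquitin ligases, had 3 tested members, of which 1 rose. Each of these small counts stands beside the background of 17.1% higher and 18.4% lower over all tested genes. Of 13576 tested protein-coding genes, 2523 were higher and 2996 lower. No difference between routes was tested. With libraries left out in turn, the late-endosomal group kept 4 of its 6 lower genes and 0 of its 1 higher gene in all 6 fits. Early endosomes and recycling kept 3 of 5 higher and 0 of 2 lower genes. All calls were kept by ER and Golgi (3 higher, 1 lower), surface delivery and secretion (2 and 2) and RAB40 (1 higher).

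**Figure D2:**
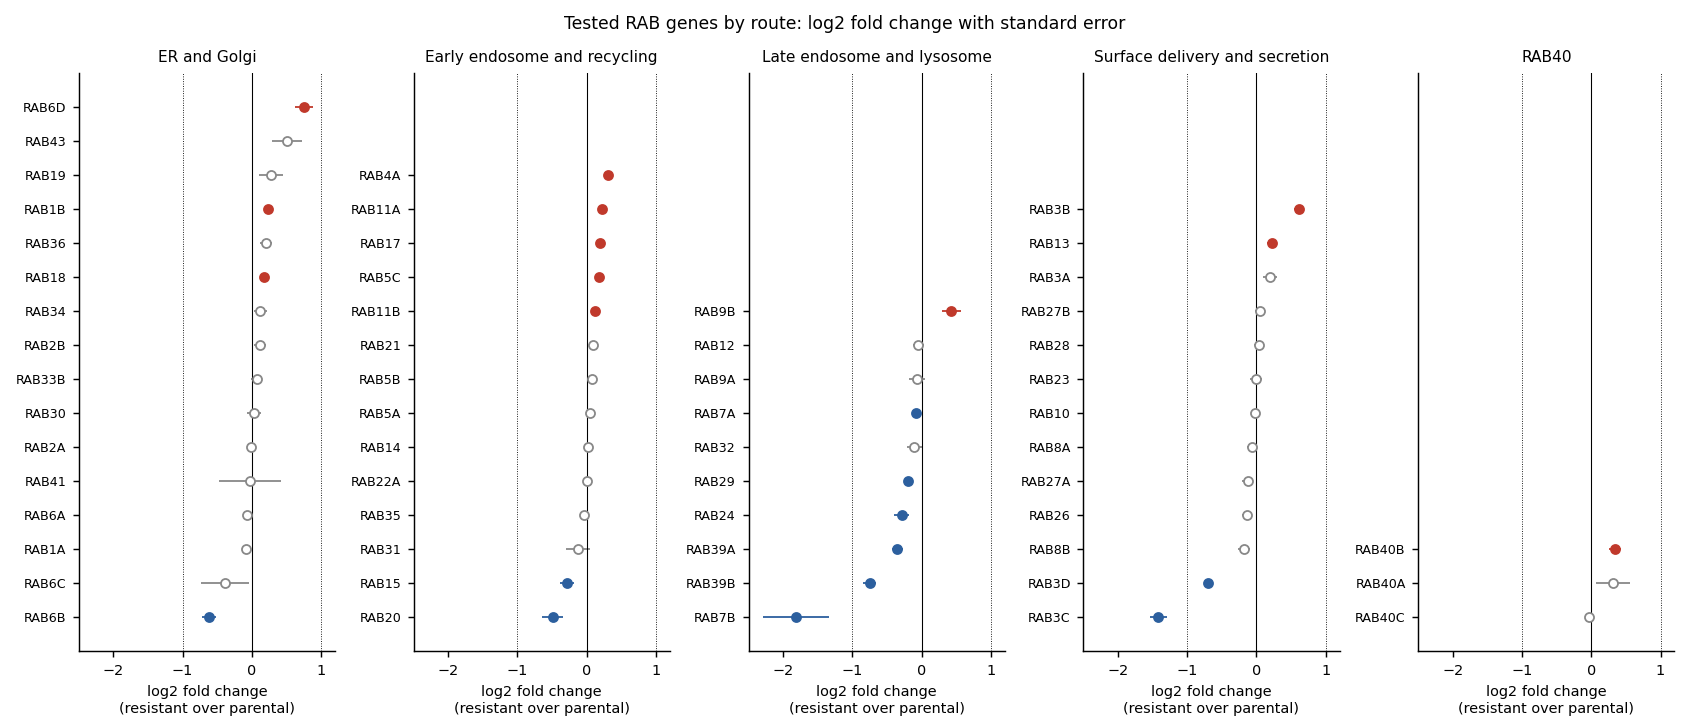
Log2 fold change with its standard error for each tested RAB gene, in a panel for each route (red, higher at an adjusted p under 0.05; blue, lower; open, not passed; dotted lines, log2 fold change of 1 in either direction). In the late endosome and lysosome panel 9 of the 10 genes lie below 0, and in the early endosome and recycling panel 10 of 14 lie above 0. Among all 17142 tested genes 8674 lie above and 8468 below 0. Signs include genes close to 0, and no difference between routes was tested.

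The regulated-secretion subfamily RAB3 held the clearest differences, and its paralogs moved in opposite directions. RAB3C (ENSG00000152932, chromosome 5, 58582221 to 58859394, hg38), a RAB of synaptic and secretory vesicles, was at 18.2, 15.99 and 15.89 CPM in the parental libraries and at 6.92, 4.95 and 6.77 CPM in the resistant ones. The lowest parental library was thus above the highest resistant library by more than the spread within either group. Its log2 fold change was -1.42 (SE 0.12), a decrease to 0.374 of the parental level (edgeR adjusted p = 9.59e-13), and it remained between -1.50 and -1.29 with any library left out. RAB3D (chromosome 19, 11322046 to 11346270), the form known from secretory granules of exocrine cells, was at 95.3, 102 and 96.1 CPM in parental and at 57.9, 60.5 and 62.1 CPM in resistant libraries. Its groups were also well apart, with a log2 fold change of -0.70 (SE 0.05, edgeR adjusted p = 4.48e-16). TMEM205 overlaps RAB3D on the same strand and had a log2 fold change in the other direction, 0.22 (SE 0.05).

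RAB3B (chromosome 1, 51907956 to 51990764), another secretory-vesicle RAB, rose. It was at 40.1, 38.3 and 39.0 CPM in the parental libraries and at 54.1, 60.4 and 64.8 CPM in the resistant libraries, with no overlap and a log2 fold change of 0.61 (SE 0.06, edgeR adjusted p = 7.23e-11). RAB3A, the main RAB of neuronal synaptic vesicles, was at 13.7, 14.3 and 18.1 CPM in parental and at 18.3, 18.7 and 15.5 CPM in resistant libraries. Those values overlapped, and its log2 fold change of 0.20 (SE 0.10) did not pass the test (edgeR adjusted p = 0.137).

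Per length, the RAB3 subfamily as a whole went from 35.4 ± 1.18 to 28.5 ± 0.569 FPKM (SD, n = 3), and its makeup shifted. RAB3D supplied 62.7% ± 2.64 of the summed RAB3 FPKM in parental and 47.7% ± 1.65 in resistant cells, while RAB3B went from 8.63% ± 0.453 to 16.3% ± 1.41. RAB3A accounted for 23.8% ± 3.08 and 33.7% ± 3.14, and RAB3C for 4.90% ± 0.545 and 2.26% ± 0.437. The log2 ratio of RAB3B to RAB3C, both in FPKM, was 0.73, 0.85 and 0.89 in parental libraries against 2.56, 3.20 and 2.85 in resistant libraries. It rose by 2.04 on average, from a 1.77-fold to a 7.29-fold excess of RAB3B. An exact two-sided permutation test gave p = 0.1 for this ratio, the smallest value that 3 against 3 libraries allow.

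The neuroendocrine markers measured beside these secretory genes differed from each other. Chromogranin A (CHGA), a dense-core granule protein, was at 39.3 ± 1.59 CPM in parental and 8.16 ± 0.494 CPM in resistant cells, while synaptophysin (SYP) was at 103 ± 7.61 and 106 ± 3.64 CPM. The summed level of this pair of markers was 135 to 149 CPM in parental and 110 to 117 CPM in resistant libraries. Its part in the RAB3 differences was not tested.

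**Figure D3:**
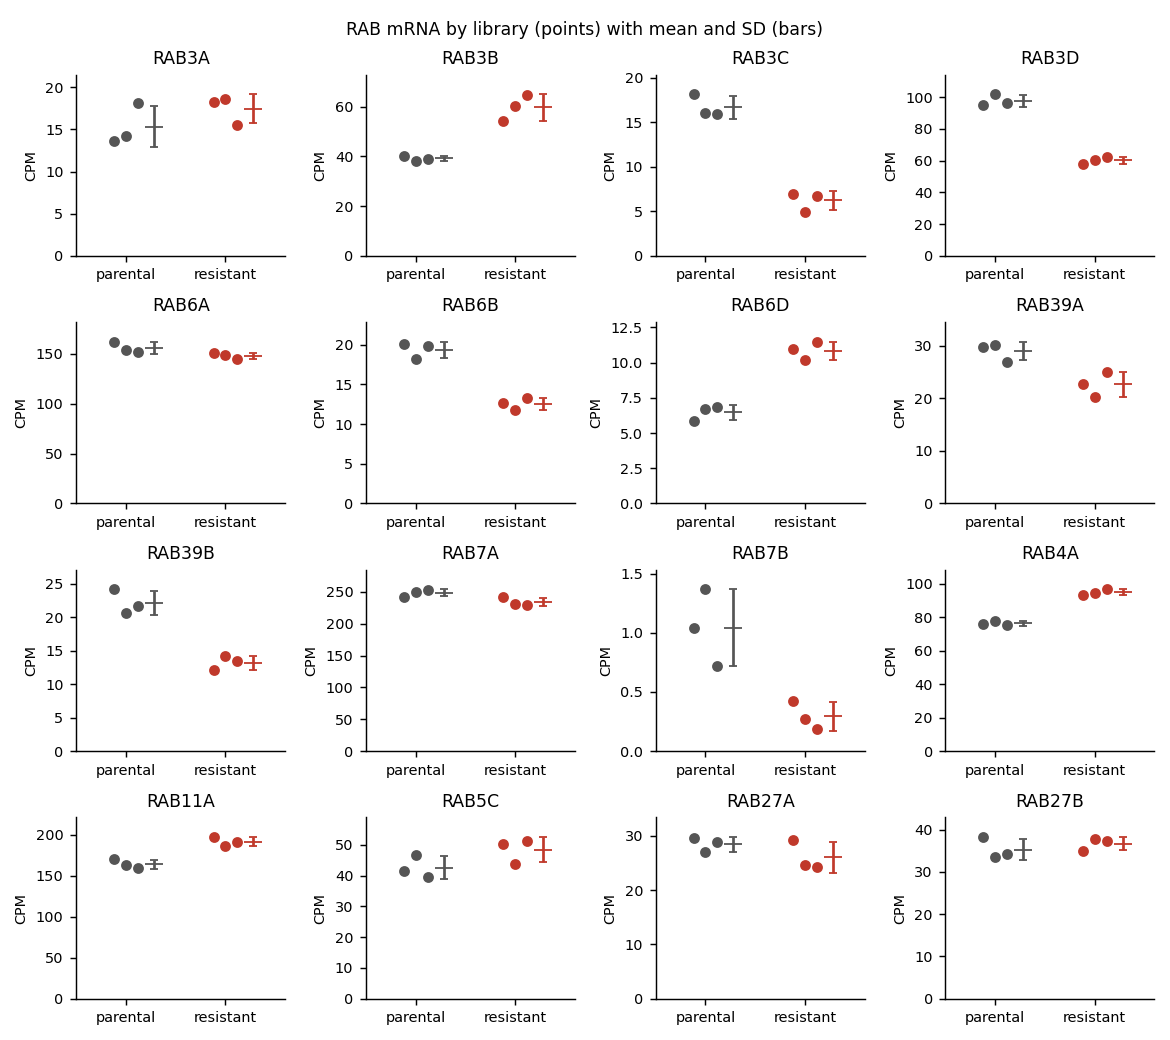
Level in CPM (vertical axis, from 0) of 16 RAB genes in each parental (grey) and resistant (red) library, with the mean and SD of the 3 libraries beside the points. RAB3C, RAB3D, RAB6B, RAB39A, RAB39B and RAB7B sit lower in every resistant library, as do RAB6A and RAB7A by a narrow margin. RAB3B, RAB6D, RAB4A and RAB11A sit higher, and RAB3A, RAB5C, RAB27A and RAB27B overlap.

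The other secretory and surface-delivery genes differed less. RAB27A, which docks lysosome-related organelles and multivesicular bodies at the plasma membrane, was at 29.5, 26.9 and 28.8 CPM in parental and at 29.3, 24.6 and 24.2 CPM in resistant libraries. RAB27B, its paralog in exosome and granule release, was at 38.2, 33.5 and 34.2 CPM in parental and at 34.9, 37.9 and 37.3 CPM in resistant libraries. The groups overlapped for both, with log2 fold changes of -0.13 (SE 0.08, edgeR adjusted p = 0.221) and 0.05 (SE 0.07, edgeR adjusted p = 0.587). Without the first resistant library, RAB27A passed the test at a log2 fold change of -0.22 (edgeR adjusted p = 0.0468). RAB10, which carries cargo from the Golgi and recycling endosomes to the surface, was among the most abundant members at 59.7 ± 1.13 FPKM in parental and 59.0 ± 0.581 FPKM in resistant cells, with a log2 fold change of -0.02 (SE 0.03). RAB13, a RAB of epithelial junctions named after its values were seen, rose from 36.7 ± 1.37 to 42.7 ± 2.13 CPM (log2 fold change 0.22, SE 0.06, edgeR adjusted p = 0.00596).

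Genes of late endosomes and lysosomes made up the larger share of lower members. RAB7B (ENSG00000276600, chromosome 1, 205976740 to 206003461), which acts between late endosomes and the Golgi, had the most negative log2 fold change of the family and also one of the lowest levels. Parental libraries held 18, 23 and 10 RAB7B counts against 7, 4 and 3 in resistant libraries. Over the libraries of both groups, 3 counts correspond to 0.174 to 0.216 CPM. The groups did not overlap, and the log2 fold change was -1.82 with a wide error (SE 0.48, edgeR adjusted p = 0.00235). RAB7B supplied 0.309% ± 0.0961 of the summed RAB7 FPKM in parental cells and 0.0914% ± 0.0348 in resistant cells, so RAB7 mRNA was almost wholly RAB7A.

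RAB7A, the RAB of late endosome and lysosome fusion, was the most abundant member per length at 91.4 ± 2.08 FPKM in parental and 86.1 ± 2.51 FPKM in resistant cells. Its level was 242, 250 and 253 CPM in parental and 242, 232 and 229 CPM in resistant libraries, with the first resistant library just below the first parental one. The log2 fold change of -0.09 (SE 0.03, edgeR adjusted p = 0.0329) was no longer past the threshold with DESeq2 or without a filter. It was also lost without parental libraries 2 or 3 or without resistant libraries 2 or 3, where the adjusted p reached 0.153.

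The RAB39 paralogs, linked to phagosomes, autophagy and neuronal vesicle traffic, both fell. RAB39B (chromosome X, 155258241 to 155264589) was at 24.2, 20.6 and 21.7 CPM in parental and at 12.1, 14.2 and 13.4 CPM in resistant libraries. RAB39A (chromosome 11, 107928503 to 107963482) was at 29.8, 30.2 and 26.9 CPM against 22.8, 20.2 and 25.0 CPM. Neither gene's groups overlapped, and the log2 fold changes were -0.75 (SE 0.09, edgeR adjusted p = 1.30e-08) and -0.35 (SE 0.08, edgeR adjusted p = 0.000435). Together they went from 22.2 ± 1.16 to 16.2 ± 1.21 FPKM, and the RAB39A to RAB39B ratio overlapped between the groups (exact permutation p = 0.2).

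Smaller decreases were found for further members of this route. RAB29, a partner of the kinase LRRK2 named after its values were seen, went from 95.4 ± 4.47 to 83.0 ± 2.51 CPM, with a log2 fold change of -0.20 (SE 0.04, edgeR adjusted p = 0.000387). RAB24, an atypical RAB linked to autophagy, was at 15.5, 13.7 and 13.4 CPM in parental and at 12.3, 10.3 and 12.3 CPM in resistant libraries, with a log2 fold change of -0.29 (SE 0.11, edgeR adjusted p = 0.0335). Its call was lost with DESeq2, without a filter, without parental library 1 (adjusted p = 0.174) and without resistant library 2 (adjusted p = 0.180), and MXD3, which overlaps RAB24 on the same strand, had a log2 fold change of -0.20. RAB9B, which returns receptors from late endosomes to the Golgi, was the member of this group that rose, from 6.66, 7.37 and 5.46 CPM to 8.55, 8.69 and 9.23 CPM. Its log2 fold change was 0.43 (SE 0.14, edgeR adjusted p = 0.0116), and without parental library 3 it was 0.33 (adjusted p = 0.0817). Its more abundant paralog RAB9A differed by -0.06 (SE 0.11) on the log2 scale and did not pass.

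In the early endosome and recycling route, RAB4A, RAB11A and RAB11B rose, while RAB15 and RAB20, described below, fell. RAB14, RAB22A and RAB35 of this route, named after their values were seen, did not pass. Their log2 fold changes were 0.02, 0.01 and -0.04. RAB4A (chromosome 1, 229271062 to 229305894), which drives fast return of receptors from early endosomes, was at 76.0, 77.8 and 75.1 CPM in parental and at 93.1, 94.5 and 96.6 CPM in resistant libraries. The groups were far apart relative to their spread, and the log2 fold change was 0.31 (SE 0.04, edgeR adjusted p = 1.75e-07). RAB11A (chromosome 15, 65726054 to 65891991), the RAB of slow recycling through the pericentriolar compartment, was at 170, 163 and 159 CPM against 197, 186 and 191 CPM. Its log2 fold change was 0.22 (SE 0.04, edgeR adjusted p = 1.60e-06), and DENND4A, which overlaps it on the opposite strand, differed by -0.03 (SE 0.06). RAB11B, its close paralog, was at 102, 105 and 114 CPM against 117, 116 and 116 CPM, a log2 fold change of 0.13 (SE 0.04, edgeR adjusted p = 0.0154). The RAB11B call was lost without parental library 1 (adjusted p = 0.104) or parental library 2 (adjusted p = 0.0790). Summed, the RAB11 paralogs went from 72.2 ± 1.85 to 80.9 ± 1.19 FPKM.

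The early endosome RAB5 genes, which act in uptake and homotypic fusion, showed little difference. RAB5A was at 55.5, 51.5 and 54.9 CPM in parental and at 56.1, 57.5 and 54.3 CPM in resistant libraries, with overlap and a log2 fold change of 0.05 (SE 0.05, edgeR adjusted p = 0.486). RAB5B was at 178, 177 and 175 CPM against 185, 190 and 185 CPM, which did not overlap, yet its log2 fold change of 0.08 (SE 0.03) did not pass (edgeR adjusted p = 0.0734). RAB5C was at 41.6, 46.8 and 39.5 CPM against 50.3, 43.8 and 51.4 CPM. It passed the test with a log2 fold change of 0.18 (SE 0.07, edgeR adjusted p = 0.0254) although its groups overlapped, and the call was lost with DESeq2 and without parental library 1 or 3 or resistant library 1 or 3. The summed RAB5 level was 56.5 ± 1.03 FPKM in parental and 60.7 ± 0.719 FPKM in resistant cells.

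Other members of the early endosomal group went down. RAB20, which acts on phagosomes and endosomes, was at 8.05, 7.19 and 7.55 CPM in parental and at 5.78, 5.90 and 4.55 CPM in resistant libraries (log2 fold change -0.49, SE 0.15, edgeR adjusted p = 0.00844). RAB15, a RAB of recycling endosomes, was at 17.0, 16.1 and 16.3 CPM against 13.3, 13.5 and 13.7 CPM (log2 fold change -0.29, SE 0.10, edgeR adjusted p = 0.0162). Neither gene's groups overlapped. The RAB20 call was lost without resistant library 3 (adjusted p = 0.0669), and the RAB15 call with DESeq2 and without parental library 1 (adjusted p = 0.0616) or resistant library 1 (adjusted p = 0.0509). RAB17, a RAB of polarised epithelia named after its values were seen, rose from 82.7 ± 1.64 to 94.4 ± 2.95 CPM (log2 fold change 0.19, SE 0.04, edgeR adjusted p = 0.000440).

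Along the secretory pathway, the paralogs that carry cargo from the ER to the Golgi parted. RAB1B rose from 143, 144 and 130 CPM to 161, 160 and 171 CPM, with a log2 fold change of 0.24 (SE 0.04, edgeR adjusted p = 4.75e-06). RAB1A was at 172, 174 and 175 CPM in parental and at 169, 157 and 166 CPM in resistant libraries, which did not overlap, but its log2 fold change of -0.08 (SE 0.04) did not pass (edgeR adjusted p = 0.0636). It passed when libraries were scaled by size alone (edgeR adjusted p = 0.0241) and without resistant library 1 (edgeR adjusted p = 0.0497). The RAB1A to RAB1B ratio of FPKM went from 0.758 to 0.606, a log2 shift of -0.32 with no overlap (exact permutation p = 0.1), and RAB1B was 62.3% ± 0.994 of RAB1 FPKM in resistant cells against 56.9% ± 1.63 in parental cells. RAB18, which links the ER to lipid droplets and was named after its values were seen, rose from 84.3 ± 3.47 to 95.7 ± 4.30 CPM (log2 fold change 0.18, SE 0.04, edgeR adjusted p = 0.00130).

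RAB6 proteins act in traffic at the Golgi, and the paralogs moved apart here too. RAB6B (chromosome 3, 133824239 to 133895836), the brain-enriched form, was at 20.1, 18.1 and 19.8 CPM in parental and at 12.7, 11.7 and 13.2 CPM in resistant libraries. RAB6D (chromosome 2, 131361111 to 131364142), a primate-specific copy, was at 5.85, 6.72 and 6.83 CPM against 10.96, 10.18 and 11.44 CPM. Both were clear of overlap, with log2 fold changes of -0.62 (SE 0.09, edgeR adjusted p = 1.05e-06) and 0.75 (SE 0.13, edgeR adjusted p = 6.69e-06). Their log2 ratio of FPKM, RAB6B over RAB6D, was 0.79, 0.45 and 0.55 in parental and -0.77, -0.78 and -0.78 in resistant libraries. The more abundant of the pair thus changed only per listed length (6005 bases for RAB6B and 3032 for RAB6D). In CPM, RAB6B stayed above RAB6D in every library. RAB6A, the housekeeping form, made up 84.6% ± 0.696 of RAB6 FPKM in parental and 83.4% ± 0.991 in resistant cells. Its groups did not overlap, but its log2 fold change of -0.08 (SE 0.04) did not pass. RAB6C and RAB6D are near-identical to each other and similar to RAB6A, so reads may have been divided among them in counting and both are uncertain. SRPRB, which overlaps RAB6B on the opposite strand, had a log2 fold change of -0.18 (SE 0.05).

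In the RAB40 subfamily, RAB40B rose from 19.5, 17.29 and 21.28 CPM to 24.0, 23.1 and 26.2 CPM (log2 fold change 0.34, SE 0.08, edgeR adjusted p = 0.00131), with no overlap. RAB40C, the most abundant of these per length, was at 12.1 ± 0.108 FPKM in parental and 11.9 ± 0.298 FPKM in resistant cells and did not pass the test.

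**Figure D4:**
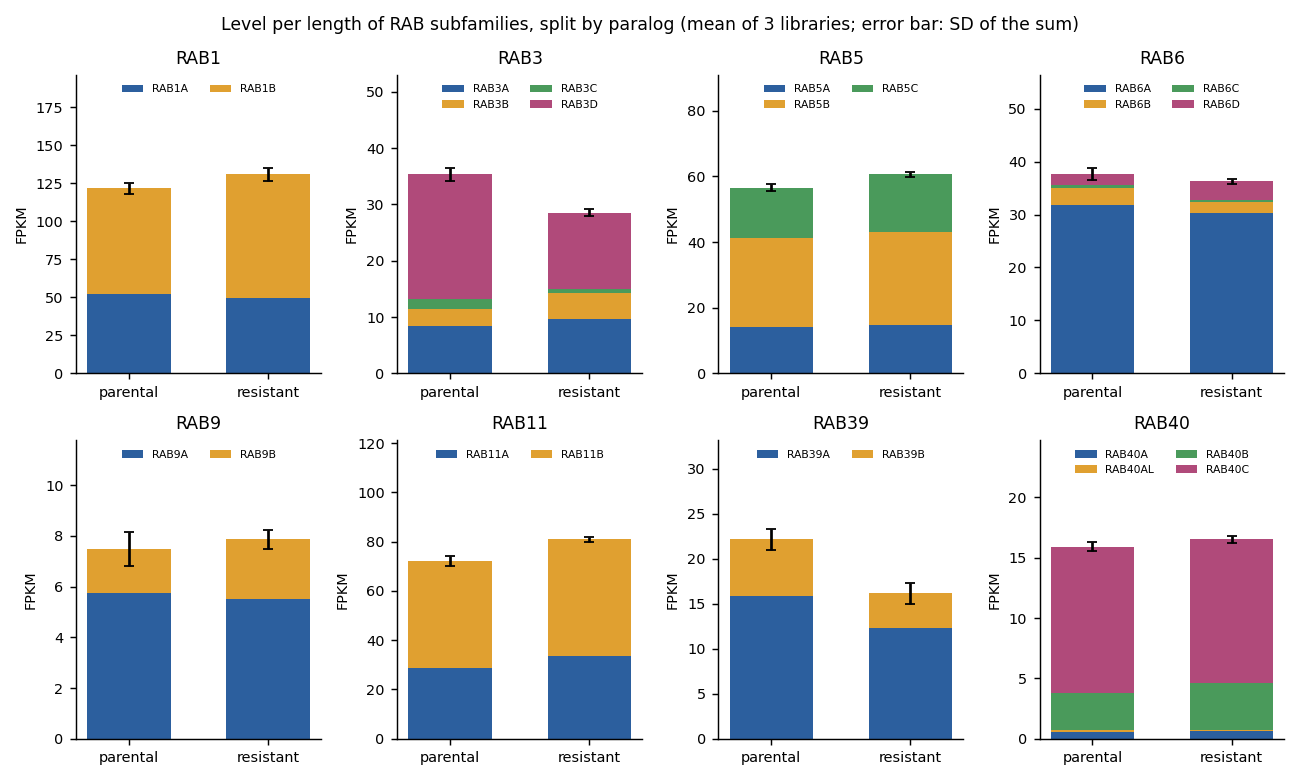
Summed level in FPKM (vertical axis, from 0) of 8 RAB subfamilies in parental and resistant cells, with each bar split by paralog (mean of 3 libraries) and the error bar giving the SD of the sum. RAB3 falls from 35.4 to 28.5 FPKM with a smaller RAB3D part, RAB39 falls from 22.2 to 16.2 FPKM, and RAB11 goes from 72.2 to 80.9 FPKM.

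Over all subfamilies, 25 paralog pairs from 11 subfamilies could be set against each other within each library. The log2 ratio did not overlap between the groups for 13 pairs, each with an exact two-sided permutation p = 0.1, and the smallest adjusted p over the 25 pairs was 0.192, so none could pass at this number of libraries. For single genes, the groups did not overlap for 44.8% of all those tested. Pairs within a subfamily share genes, so the pairs are not separate observations. All 6 pairs of RAB3 genes and 4 of the 6 pairs of RAB6 genes were among the 13. The others were RAB1A to RAB1B, RAB9A to RAB9B, whose log2 ratio went from 1.74 to 1.23, and RAB40B to RAB40C, whose log2 ratio went from -1.96 to -1.59.

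Per length, the 5 most abundant members over all libraries were RAB7A (88.8 FPKM), RAB1B (75.4 FPKM), RAB10 (59.3 FPKM), RAB1A (50.9 FPKM) and RAB11B (45.3 FPKM). They had log2 fold changes between -0.09 and 0.24. At the other end, 8 members were too low to test. RAB44 had 0 counts in every library, and RAB38, a RAB of pigment granules, had 3 counts in 1 resistant library and none elsewhere. RAB25 had at most 2 counts and RAB40AL at most 7 counts in any library. RAB4B had 7, 1 and 4 counts in parental and 7, 4 and 3 in resistant libraries, and RAB42 had 13, 5 and 2 against 2, 3 and 3. RAB37 had 9, 12 and 6 counts against 5, 4 and 4, and RAB33A had 8, 11 and 14 against 7, 2 and 4. RAB33A entered the fit only with a library left out, and was then called lower without parental library 1 (log2 fold change -1.56) or resistant library 1 (log2 fold change -1.80), but did not pass in the other fits it entered. A library with 0 counts allows a level of up to 0.174 to 0.216 CPM, from counting error alone.

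The genes that operate the RAB cycle were described as 4 classes, 140 genes in all. Of the 123 tested, 22 rose and 22 fell, together 35.8%. The background was 35.5% of all tested genes (17.1% higher, 18.4% lower) and 40.7% of tested protein-coding genes. With a log2 fold change over 1 also required, 1 was called higher (background 2.53%) and 5 were called lower (background 2.84%). DESeq2 gave 13 higher genes in place of 22, and over all tested genes 2292 in place of 2928. All 8 genes of prenylation, escort and membrane extraction were tested, with 3 higher and 2 lower. That is 62.5% in all against 35.5% of all tested and 40.7% of tested protein-coding genes, in a class of few genes. CHML, an escort protein that presents new RABs for prenylation, was at 68.2, 61.7 and 64.3 CPM against 50.93, 55.03 and 50.86 CPM (log2 fold change -0.31, SE 0.05, edgeR adjusted p = 1.20e-05). Its groups did not overlap. CHM, the paralog of CHML, was named after its values were seen and rose from 51.1 ± 1.25 to 57.1 ± 1.81 CPM. Its log2 fold change was 0.16 (SE 0.05, edgeR adjusted p = 0.0176), a call kept in 3 of the 6 fits with a library left out.

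Among the nucleotide exchange factors, 3 of 33 tested genes rose and 4 fell, and the 2 called were scarce. That is 21.2% against 35.5% of all tested and 40.7% of tested protein-coding genes. RIN3, a GEF for RAB5, had 19, 11 and 9 counts in parental and 5, 5 and 2 in resistant libraries (log2 fold change -1.65, SE 0.52, edgeR adjusted p = 0.0117). DENND2A, a GEF for RAB9, had 13, 15 and 14 counts against 4, 6 and 6 (log2 fold change -1.36, SE 0.47, edgeR adjusted p = 0.0210). RIN3 passed in 4 and DENND2A in 2 of the 6 fits with a library left out. The GAPs had 11 of 41 tested genes higher and 4 lower, 36.6% in all. The background was 35.5% of all tested genes (17.1% higher, 18.4% lower) and 40.7% of tested protein-coding genes. TBC1D8 was at 37.1, 34.0 and 36.5 CPM in parental and 54.4, 53.2 and 54.6 CPM in resistant libraries (log2 fold change 0.59, SE 0.06, edgeR adjusted p = 6.09e-11). TBC1D32, a GAP-domain protein of cilia, had a log2 fold change of 0.49 (SE 0.09, edgeR adjusted p = 1.55e-05).

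Among the effectors, 5 of 41 tested genes rose and 12 fell, 41.5% in all against 35.5% of all tested genes and 40.7% of tested protein-coding genes, and 4 were called. MYRIP, which couples RAB27A to myosin and actin, was at 36.4, 32.9 and 31.6 CPM in parental and at 10.5, 9.43 and 12.2 CPM in resistant libraries (log2 fold change -1.65, SE 0.09, edgeR adjusted p = 7.46e-19). SYTL5, a synaptotagmin-like RAB27 effector, was at 6.77, 6.66 and 6.33 CPM against 3.07, 3.12 and 2.77 CPM (log2 fold change -1.14, SE 0.17, edgeR adjusted p = 8.09e-07). Every resistant library was below every parental library for both. RIMS1, a RAB3 effector of the presynaptic active zone, rose from 11.8, 10.2 and 11.6 CPM to 22.9, 20.4 and 25.0 CPM (log2 fold change 1.03, SE 0.10, edgeR adjusted p = 1.23e-11). RIMS4, a short protein of the same family, fell from 5.33, 5.11 and 4.46 CPM to 1.87, 2.38 and 1.48 CPM (log2 fold change -1.39, SE 0.21, edgeR adjusted p = 1.18e-06). Whether RIMS4 itself binds a RAB was not examined.

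The RAB27 effectors, set side by side after their values were seen, mostly lay on the lower side while RAB27A and RAB27B themselves did not pass. Besides MYRIP and SYTL5, EXPH5 (log2 fold change -0.58), SYTL2 (-0.29) and SYTL1 (-0.25) fell, and MLPH, which links RAB27A to a myosin motor, rose by 0.08 on the log2 scale (edgeR adjusted p = 0.0395), a call kept in 2 of the 6 fits with a library left out (largest adjusted p = 0.210). SYTL3, SYTL4 and UNC13D had log2 fold changes of -0.03, 0.16 and 0.40 and did not pass. Per length MLPH was the most abundant of these, at 36.4 ± 0.879 FPKM in parental and 38.4 ± 1.04 FPKM in resistant cells. Over all tested genes, 17.1% were higher and 18.4% lower at an adjusted p under 0.05. Since the grouping was made on these values, it is a description and was given no test.

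**Figure D5:**
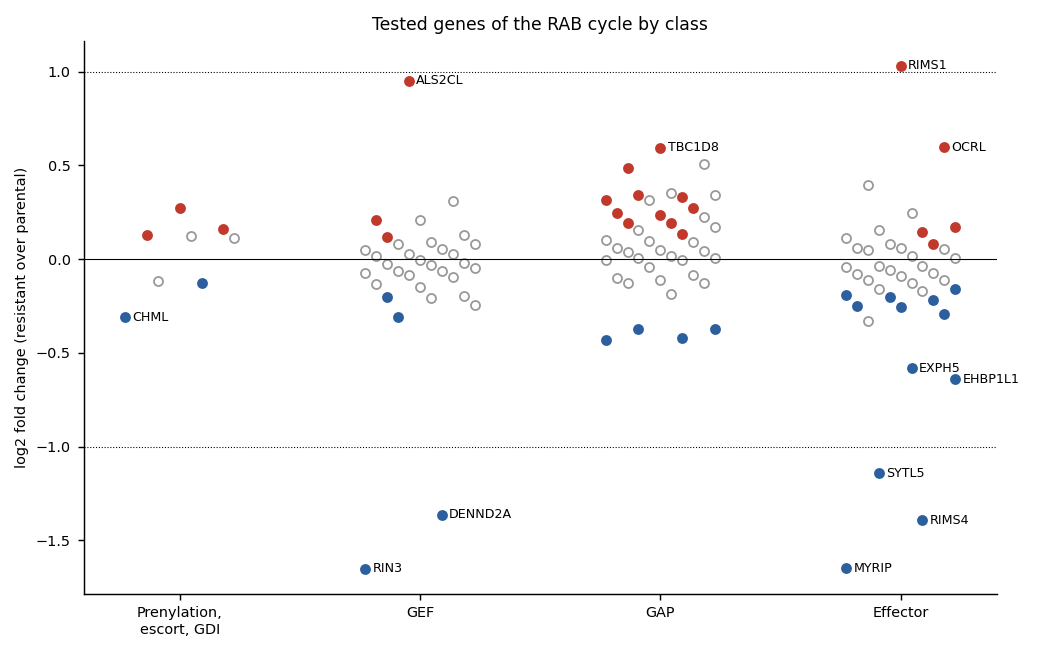
Log2 fold change (vertical axis) of the tested genes of the RAB cycle in 4 classes (red, higher at an adjusted p under 0.05; blue, lower; open, not passed; dotted lines, log2 fold change of 1 in either direction). Points within a class are spread sideways for legibility, and MYRIP, RIMS4, SYTL5, RIN3 and DENND2A lie below the lower line while RIMS1 lies above the upper line.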

How the data were processed

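RNA-Seq of poly-A mRNA was analysed for 3 parental and 3 resistant libraries, grouped by the sample labels. Mouse is the labelled organism, but the cell line and gene identifiers are human, so all genes were treated as human. The authors trimmed reads with fastp, mapped them to hg38 with HISAT2 2.0.5, counted them per gene with featureCounts 1.5.0-p3, per the submitters' processing notes, and deposited raw counts with gene lengths, another quantity listed by the authors. The annotation release and strand setting are not given in the sources used here, so counts of overlapping, antisense or near-identical genes are uncertain. No human sequence was used. The number of per-sample columns left unused was 0.

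Low genes were removed with filterByExpr, the deposited counts were scaled with TMM, and the quasi-likelihood test of edgeR 4.0.16 (R 4.3.3) was run, with Benjamini-Hochberg adjustment over 17142 genes. The standard error is the size of the log2 fold change over the square root of F. CPM uses TMM-scaled library sizes, and FPKM divides CPM by the listed length in kilobases. Called means FDR under 0.05 and an absolute log2 fold change over 1. Paralog ratios were tested with two-sided exact permutation tests (scipy 1.17.1). Other settings were limma-voom from limma 3.58.1, which the methods of the study name, DESeq2 1.42.0, library size alone, every gene kept, a minimum of 10 counts in each library, glmTreat against a log2 fold change of 1, the replicate number as a block, and each library left out. The scripts were tested on simulated data.

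Named members are those called, the 15 at FDR under 0.05 with the largest absolute log2 fold change and at least 1 CPM, the 5 highest in FPKM, RAB4A, RAB5A to RAB5C, RAB7A, RAB11A, RAB11B, RAB27A and RAB27B, and those not tested. Regulators named are those called and the 2 largest changes per class. A regulator that this rule names is not reported here. The members, routes and lists were chosen with earlier results of these data known. The symbol DENND2B matched no gene of the table. Counting floors of 3 counts cover counting error only.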

Additional observations from a re-analysis of the deposited data

How the results depend on the processing

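The number of RAB genes at FDR under 0.05 was 12 higher and 11 lower, and it ranged over the fits with 1 library left out from 11 to 13 higher and from 9 to 13 lower. limma-voom gave 12 and 11, DESeq2 11 and 8, library size alone 12 and 13, no filter 12 and 9, and at least 10 counts in every library 12 and 10. Among the 42 tested members with no overlapping gene above 10% of their counts, an alternative added after seeing the data, 11 were higher and 8 lower. In the main fit the background over all tested genes was 17.1% higher and 18.4% lower, 2928 and 3153 genes. Over all genes DESeq2 gave 2292 higher and 2540 lower, library size alone 2640 and 3476, and no filter 2782 and 2958. Fits with 1 library left out gave 2514 to 2734 higher and 2701 to 2900 lower. The 2 members called lower became 1 with at least 10 counts in every library, which removes RAB7B by construction, and 1 with glmTreat, which left RAB3C; leaving out libraries gave 2 to 3. Genes of the RAB cycle at FDR under 0.05 were 22 higher and 22 lower, 13 higher with DESeq2 (the cause was not tested), and 15 to 18 higher and 20 to 22 lower with a library left out. Of 324 values of the named members' log2 fold changes under other settings, 281 stayed on the same side of the threshold, 40 lost it (18 of them under glmTreat), 3 gained it and 0 changed sign. Same-numbered libraries did not deviate together (correlations -0.0081, -0.020 and -0.016), so the replicate block was only an alternative, with 12 members higher and 11 lower and 20 and 22 genes of the cycle. Low members such as RAB7B and the 8 untested genes are limited by depth.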
